A study of Mus musculus with 8 samples.

Results

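Non-parenchymal liver cells are represented here by 38 marker genes, 14 of Kupffer cells, 10 of sinusoidal endothelial cells, 9 of stellate cells and 5 of cholangiocytes, among the 20894 genes of the deposited count table. They were chosen by gene symbol from a list, with no measured value in the rule. The list was made with earlier results of these data known. The livers came from wild-type mice that had received AAV8, an adeno-associated virus used to carry genes into liver, and were killed after fasting during the day. In the POLR2G group (4 libraries) the virus carried POLR2G, a subunit of RNA polymerase II, and in the GFP control group (4 libraries) it carried green fluorescent protein. Both used the promoter of the thyroxine-binding globulin gene (TBG), active mainly in hepatocytes, so both groups share the virus, the promoter and the fast. The sources used here give no strain, sex or age. Which animal each library came from is not stated, so p-values reflect only how far these libraries vary, which may be technical.

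Hepatocytes make up most of the liver's mass, and the cells studied here fill the space around them. Kupffer cells are the resident macrophages of the sinusoids, the liver's capillaries, where they take up particles and old blood cells from portal blood. Sinusoidal endothelial cells form a porous lining and clear waste molecules through scavenger receptors. Stellate cells store vitamin A between that lining and the hepatocytes and can turn into matrix-producing cells, while cholangiocytes line the bile ducts. In RNA from whole liver, fewer cells of a type and less RNA per cell cannot be told apart.

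Total estimated counts were 16362899 to 22165491 in the POLR2G libraries and 14159056 to 18865284 in the GFP control libraries. The markers together held 0.0720% to 0.112% of the counts of a POLR2G library and 0.0566% to 0.0948% of those of a GFP control library. That was 10673 counts in GFP control replicate 1, the lowest, and 18394 in the POLR2G library with the most. Some markers had few counts. Polr2g had 2412 ± 154 CPM in the POLR2G libraries and 13.7 ± 1.003 CPM in the GFP control libraries (SD, n = 4 each), and every library matched its group. Levels are given as CPM, each gene's count relative to a library size scaled by TMM (trimmed mean of M-values). One POLR2G library has a column number that the labels do not list, while no column matches the labels' POLR2G replicate 2. Whether they are the same is not stated. The library with that column is called the unnumbered POLR2G library below. Of all libraries it was the highest for 11 of the 13 tested Kupffer cell markers, and it stood far apart in Marco. GFP control replicate 3 stood apart from the other GFP control libraries in Col1a1, Epcam and the mesothelial genes Upk3b and Msln.

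No marker passed the test. Of the 38 genes, Stab2 was not analysed here and 6 others had too few counts to be tested (Cd68, Stab1, Fcgr2b, Col3a1, Krt7 and Krt19). Of the 31 tested, 0 had an adjusted p under 0.05 in edgeR's quasi-likelihood test over 10390 genes, in which 4 genes (0.0385%) were called, 2 of them higher in POLR2G (0.0192%) and 2 lower (0.0192%). DESeq2 and limma-voom also called 0 of the markers, but DESeq2 gave no adjusted p for Adgre1, Des, Spp1 and Epcam. At an unadjusted edgeR p under 0.05 there were 2, Lyz2 and Lyve1, where 8.3% of all genes tested lay under that value. The groups did not overlap for 1 of the 31, Lyve1, against 5.51% of all genes tested. It was lower in POLR2G, as were 2.68% of all genes tested with groups apart, and no marker was higher with groups apart, where 2.83% of all genes tested were. Between POLR2G and GFP control libraries, 24 of the 31 had a higher mean and 7 a lower one, where 49.3% of all genes tested had a log2 fold change above 0. Without the unnumbered POLR2G library 17 had a higher mean and 14 a lower one (54.8% higher). The median log2 fold change of the 31 was 0.16, beside -0.0031 for all genes tested.

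**Figure D1:**
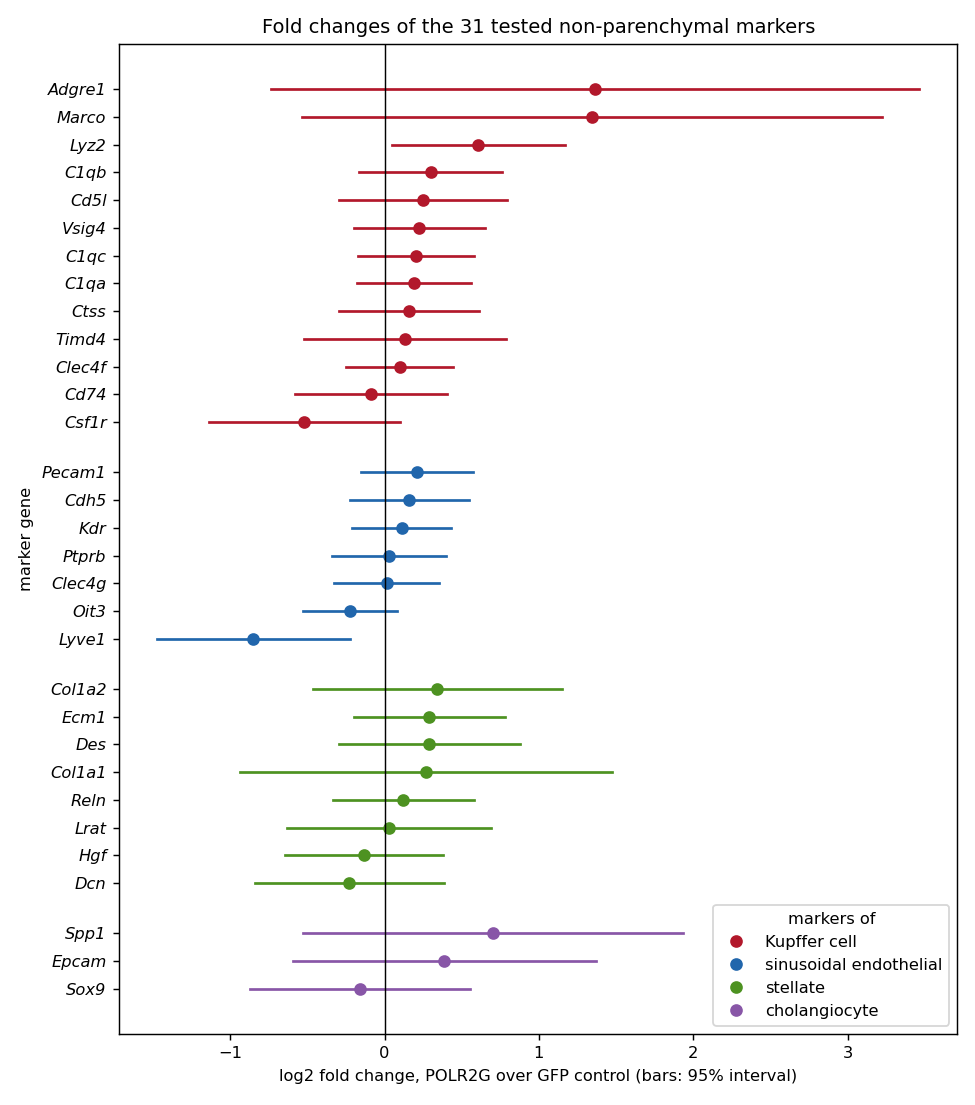
Log2 fold changes (x axis, POLR2G over GFP control) of the 31 tested markers (y axis), as points with the 95% interval of edgeR's fit as bars and the colour giving the cell type. Lyz2 and Lyve1 are the markers whose interval leaves out 0, and neither had an adjusted p under 0.05.

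Kupffer cell markers had, as a set, a higher mean in the POLR2G libraries, and that difference lay mostly in 1 library. Of the 13 tested, 11 had a log2 fold change above 0 and 2 below, with a median of 0.20. The summed level of the 14 Kupffer genes was 435, 384, 465 and 725 CPM in POLR2G replicates 1, 3 and 4 and the unnumbered library, and 348, 342, 476 and 516 CPM in GFP control replicates 1 to 4. The unnumbered POLR2G library was the highest of the 4 POLR2G libraries for 13 of the 13 genes, and the highest of all 8 libraries for 11. The exceptions among all 8 were Csf1r, highest in GFP control replicate 3, and Cd74, highest in GFP control replicate 4. Without the unnumbered library 7 of the 13 had a log2 fold change above 0 and 6 below, and the median was 0.023. Among GFP control libraries, replicate 4 was the highest for 9 of the 13 and replicate 3 for the other 4, so the spread within that group was also shared by the genes.

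**Figure D2:**
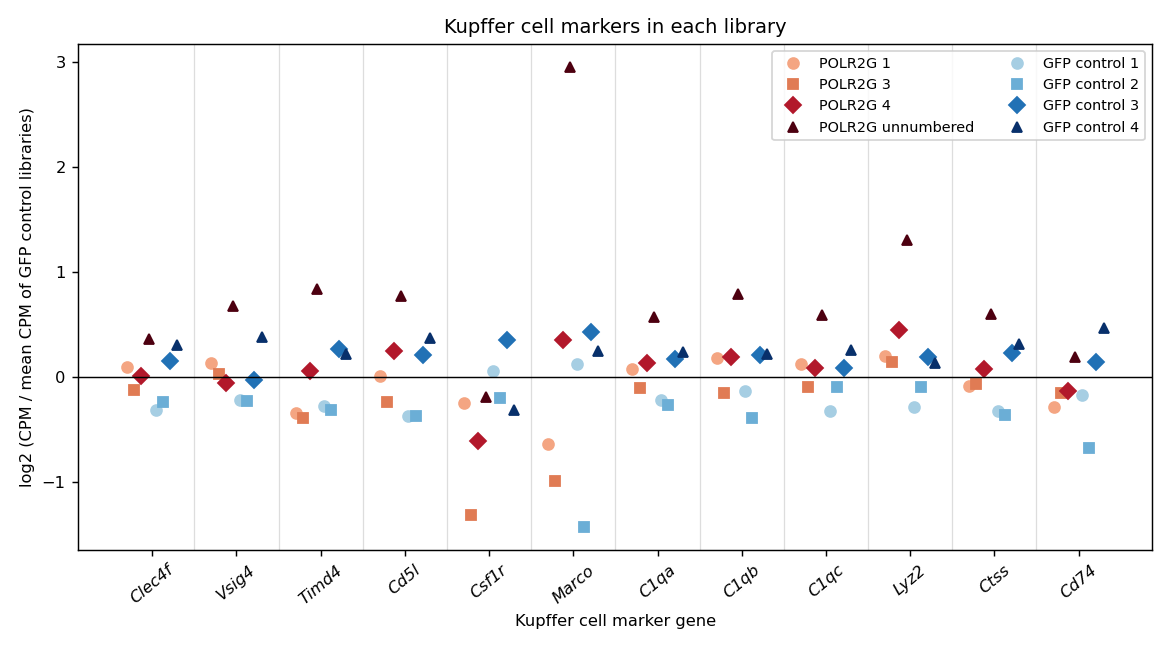
Level of 12 tested Kupffer cell markers (x axis; Adgre1, listed at 0 in 1 library, is left out) in each library as log2 of CPM over the mean of the GFP control libraries (y axis). Red symbols are POLR2G and blue symbols GFP control libraries. The unnumbered POLR2G library lies above the other 3 POLR2G libraries for each gene, by most for Marco and Lyz2.

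Markers of resident Kupffer cells overlapped between the groups. Clec4f, a lectin found on Kupffer cells, measured 100.2, 86.2, 94.96 and 121 CPM in POLR2G replicates 1, 3 and 4 and the unnumbered library, and 75.7, 79.8, 105 and 116 CPM in GFP control replicates 1 to 4. The groups overlapped, with a log2 fold change of 0.10 (SE 0.155, edgeR adjusted p = 0.922) and a 95% interval of the fold from 0.842 to 1.36. Cd5l encodes a macrophage-secreted protein that keeps macrophages alive. It measured 87.3, 73.2, 103 and 148 CPM in the same POLR2G libraries and 66.7, 66.7, 100.2 and 112 CPM in the GFP control libraries, with the unnumbered library highest and the groups overlapping (log2 fold change 0.25, SE 0.241, edgeR adjusted p = 0.845). Vsig4, a complement receptor that captures bacteria, had 24.3 ± 6.02 CPM in POLR2G and 20.7 ± 4.33 CPM in GFP control libraries. Timd4, a receptor for phosphatidylserine on dying cells that marks long-lived Kupffer cells, had 8.32 ± 3.64 CPM in POLR2G and 7.59 ± 1.63 CPM in GFP control libraries (SD, n = 4 each). Neither passed (edgeR adjusted p = 0.819 for Vsig4 and 0.944 for Timd4). Without the unnumbered library the log2 fold change was -0.0023 for Clec4f, 0.023 for Cd5l, 0.040 for Vsig4 and -0.21 for Timd4.

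C1qa, C1qb and C1qc encode the chains of C1q, the protein that starts the classical complement pathway and that macrophages secrete. They lie in a row on chromosome 4 on the minus strand (GENCODE M21, GRCm38). C1qb is at 136880129 to 136886187, C1qc at 136889804 to 136893065 and C1qa at 136895917 to 136898803, with gaps of 3616 and 2851 bases. The promoter windows of C1qb and C1qc are printed because these neighbouring genes are compared with each other in what follows, and that of Marco because 1 library stood far from the others. Each window runs from 250 bases before to 50 after the start site (RefSeq, GRCm38.p6). Capitals mark GAGGAA or its reverse complement TTCCTC, the core bound by PU.1, a transcription factor of macrophages.
C1qb (GRCm38.p6, chr4:136886151-136886450, minus strand): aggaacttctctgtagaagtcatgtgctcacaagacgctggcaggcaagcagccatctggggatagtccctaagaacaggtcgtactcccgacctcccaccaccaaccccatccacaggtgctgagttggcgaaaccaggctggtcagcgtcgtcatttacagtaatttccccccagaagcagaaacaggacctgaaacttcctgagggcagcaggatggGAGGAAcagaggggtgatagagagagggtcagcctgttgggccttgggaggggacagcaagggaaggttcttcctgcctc
C1qc (GRCm38.p6, chr4:136892865-136893164, minus strand): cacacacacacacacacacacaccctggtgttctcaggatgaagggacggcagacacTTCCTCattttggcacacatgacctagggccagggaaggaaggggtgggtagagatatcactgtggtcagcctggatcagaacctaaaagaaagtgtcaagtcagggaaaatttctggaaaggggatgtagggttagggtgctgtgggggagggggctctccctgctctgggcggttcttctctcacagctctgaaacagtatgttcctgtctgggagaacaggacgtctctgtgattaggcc
Marco (GRCm38.p6, chr1:120504975-120505274, minus strand): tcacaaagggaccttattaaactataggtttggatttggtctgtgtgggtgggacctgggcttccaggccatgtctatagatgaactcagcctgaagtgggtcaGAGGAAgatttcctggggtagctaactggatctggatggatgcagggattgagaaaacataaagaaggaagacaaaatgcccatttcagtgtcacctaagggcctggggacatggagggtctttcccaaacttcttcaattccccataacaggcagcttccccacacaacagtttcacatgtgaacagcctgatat
Each window holds 1 match. Among all 32851 promoter windows, 28.3% hold one, and of the 10 Kupffer markers with a window 7 do (Vsig4, Cd5l, Marco, C1qb, C1qc, Cd68 and Ctss). Of all 25 markers with a window 11 do. The share over all windows counts each window, while a gene counts if any of its windows holds a match, so the shares are not alike. A match is a description of the letters and shows no binding.

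C1qa made up 35.0% to 37.5% of the counts of the 3 chains in the POLR2G libraries and 36.7% to 37.5% in the GFP control libraries. For C1qb the shares were 31.9% to 35.9% and 29.7% to 34.6%, and for C1qc 29.0% to 30.7% and 28.2% to 33.6%, in that order. The C1q total was highest in the unnumbered POLR2G library (2660 counts) and lowest in GFP control replicate 2 (1467 counts). C1qa held 35.0% in that POLR2G library (exact 95% binomial interval 33.2% to 36.9%) and 36.7% in that GFP control library (34.3% to 39.3%), so the intervals overlapped. C1qb held 35.9% (34.1% to 37.8%) and 29.7% (27.3% to 32.1%) in the same libraries, and these intervals did not overlap. C1qc held 29.0% (27.3% to 30.8%) and 33.6% (31.2% to 36.1%), also without overlap. The 3 shares of a library add up to a fixed whole, so this is not a result separate from that of C1qb. These libraries were picked for their C1q totals. The intervals cover counting error only, and libraries of a group differed by more than that. C1qa had 43.0 ± 8.97 CPM in POLR2G and 37.6 ± 6.77 CPM in GFP control libraries, C1qb 40.6 ± 11.7 and 33.0 ± 6.48 CPM, and C1qc 35.2 ± 7.62 and 30.6 ± 5.27 CPM (SD, n = 4 each; edgeR adjusted p = 0.825, 0.766 and 0.815).

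Lyz2, the lysozyme gene of macrophages and neutrophils, had the smallest p among the Kupffer markers. It measured 50.1, 48.0, 59.2 and 108 CPM in POLR2G replicates 1, 3 and 4 and the unnumbered library, and 35.6, 40.7, 49.8 and 47.8 CPM in GFP control replicates 1 to 4. Only POLR2G replicate 3 lay within the range of the GFP control libraries. The log2 fold change was 0.61 (SE 0.250, a 1.52-fold higher mean with a 95% interval from 1.03 to 2.25, edgeR adjusted p = 0.547, exact two-sided permutation p = 0.0571). Without the unnumbered library it was 0.27. Lyz1, a near-identical copy that can share reads, had 0 to 5 counts in a library.

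Marco, a scavenger receptor for bacteria and particles, was set apart by 1 library. It measured 5.02, 3.92, 9.97 and 60.6 CPM in POLR2G replicates 1, 3 and 4 and the unnumbered library, and 8.54, 2.9, 10.5 and 9.27 CPM in GFP control replicates 1 to 4. The unnumbered library, with 1011 counts, was 5.76-fold above the next highest library, and the other 7 spanned 2.9 to 10.5 CPM. The log2 fold change was 1.34 (SE 0.835, edgeR adjusted p = 0.747) and turned to -0.31 without that library. Csf1r, the receptor for the growth factor CSF1 on which macrophages depend, went the other way. It measured 4.54, 2.17, 3.53 and 4.73 CPM in the same POLR2G libraries and 5.60, 4.70, 6.90 and 4.34 CPM in GFP control replicates 1 to 4. The unnumbered POLR2G library lay above GFP control replicates 2 and 4, so the groups overlapped (log2 fold change -0.52, SE 0.275, edgeR adjusted p = 0.672).

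Of the remaining Kupffer markers, Ctss, a lysosomal protease, had 36.6 ± 8.85 CPM in POLR2G and 32.7 ± 8.03 CPM in GFP control libraries. Cd74, the invariant chain of MHC class II molecules, had 19.3 ± 2.84 CPM in POLR2G and 20.5 ± 6.62 CPM in GFP control libraries (SD, n = 4 each; edgeR adjusted p = 0.896 for Ctss and 0.957 for Cd74). Adgre1, the gene of the F4/80 antigen, had 7 to 50 counts in POLR2G and 0 to 29 in GFP control libraries, with the highest count in the unnumbered library (log2 fold change 1.37, SE 0.934, edgeR adjusted p = 0.765). Cd68, a lysosomal glycoprotein of macrophages, had 0 to 3 counts in POLR2G and 0 to 4 in GFP control libraries and was not tested.

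Some of these low values concern genes that liver macrophages and endothelium are known to express strongly. GENCODE M21 gives several coding transcripts for Adgre1, Cd68, Stab1, Fcgr2b and Col3a1, but also for the well-counted Ecm1, Pecam1 and Ptprb, and 1 for the untested Krt19. Of the 21 markers with several coding transcripts 16 were tested, and of the 16 with 1 coding transcript 15 were. Whether the table holds all transcripts of such genes was not tested, so levels between genes are given per length only for genes with 1 coding transcript. Per kilobase of that transcript, Cd5l had 50.5 ± 16.0 CPM in POLR2G and 42.5 ± 11.5 CPM in GFP control libraries, and Lyz2 50.3 ± 21.3 and 33.0 ± 4.97 CPM. C1qa followed with 41.3 ± 8.63 and 36.2 ± 6.51 CPM, Clec4f with 40.7 ± 6.04 and 38.03 ± 7.84 CPM, Vsig4 with 16.9 ± 4.20 and 14.5 ± 3.03 CPM, and Timd4 with 3.83 ± 1.68 and 3.49 ± 0.750 CPM, POLR2G before GFP control in each pair (SD, n = 4 each). The mean ± SD ranges of Cd5l, Lyz2, C1qa and Clec4f overlapped, and Timd4 lay below all of them in level. These ranges span libraries and do not compare the genes within a library, so whether they differ there was not tested. Endothelial Kdr had 6.40 ± 0.816 CPM per kilobase in POLR2G and 5.92 ± 1.05 in GFP control libraries, stellate Lrat 3.003 ± 0.766 and 2.95 ± 1.205, and ductal Sox9 0.966 ± 0.135 and 1.08 ± 0.531, so the Kupffer genes other than Timd4 had the higher levels per length of these.

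Lists of other immune genes gave the context. Of 18 further Kupffer cell and macrophage genes 14 were tested, 12 with a higher and 2 with a lower mean, a median of 0.16 and 0 past the threshold. The smallest p was that of Hpgd, a prostaglandin-degrading enzyme (log2 fold change -0.32, SE 0.100, edgeR adjusted p = 0.419). Their summed level was 591 to 669 CPM in POLR2G libraries, highest in the unnumbered one, and 500.04 to 643 CPM in GFP control libraries. MHC class II genes had 5 of 6 tested, 4 of them with a higher mean, and a median of 0.071. Genes of monocytes and recruited macrophages summed to 10.3 to 11.3 CPM in POLR2G and 12.7 to 19.6 CPM in GFP control libraries, without overlap. That sum was mostly Cd9, a tetraspanin that other cells also carry, at 8.19 ± 0.753 CPM in POLR2G and 12.4 ± 2.49 CPM in GFP control libraries (a log2 difference of -0.59, SE 0.157, edgeR adjusted p = 0.344). Just 3 of the 10 genes in that list were tested, with 0 past the threshold. Of these, 0 had a higher and 3 a lower mean, with a median of -0.59. Few genes could be tested for neutrophils (2 of 11), T and NK cells (2 of 14), B and plasma cells (1 of 8) and dendritic cells (2 of 7), with 0 past the threshold. Cxcr2, a chemokine receptor of neutrophils, had 3.53 ± 0.904 CPM in POLR2G and 5.08 ± 1.47 CPM in GFP control libraries, without overlap (log2 fold change -0.52, SE 0.273, edgeR adjusted p = 0.669). Csf3r, the other tested neutrophil gene, went the opposite way. It had 2.24 ± 0.821 CPM in POLR2G and 1.69 ± 0.463 CPM in GFP control libraries, and its groups overlapped. Its log2 difference was 0.40 with an SE of 0.350 (edgeR adjusted p = 0.825). Groups lay apart with POLR2G lower, as for Cd9 and Cxcr2, in 2.68% of all genes tested. That share is of single genes and not of sums over a list. Neutrophil genes summed to 6.03 to 6.89 CPM in POLR2G and 5.92 to 9.16 CPM in GFP control libraries, and the neutrophil markers Ly6g and Ngp had 0 counts in every library. Red blood cell genes summed to 808 to 1546 CPM in POLR2G and 613 to 1437 CPM in GFP control libraries. The part of blood cells in the Kupffer values was not tested.

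Sinusoidal endothelial markers overlapped between the groups, apart from Lyve1. Of the 7 tested, 5 had a log2 fold change above 0 and 2 below, with a median of 0.028. The summed level of the 9 endothelial genes in the table was 172 to 215 CPM in the POLR2G libraries and 152 to 213 CPM in the GFP control libraries. GFP control replicate 1 was the lowest of all 8 libraries for 5 of the 7. In the POLR2G group replicate 4 was the lowest for 5 of the 7.

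Lyve1, a hyaluronan receptor of sinusoidal and lymphatic endothelium and of some macrophages, had a lower mean in the POLR2G libraries. It measured 7.38, 6.09, 7.58 and 6.95 CPM in POLR2G replicates 1, 3 and 4 and the unnumbered library, and 11.9, 9.34, 21.1 and 8.29 CPM in GFP control replicates 1 to 4. All 4 POLR2G libraries lay below all 4 GFP control libraries, by a narrow gap to GFP control replicate 4 and a wide one to replicate 3. The log2 fold change was -0.85 (SE 0.277, a 95% interval of the fold from 0.360 to 0.855, edgeR adjusted p = 0.444). An exact two-sided permutation test gave p = 0.0286, which no arrangement of these 8 libraries can undercut. Groups that lie apart fix this value, so it restates the separation and is not separate support. Groups lay apart in 5.51% of all genes tested. Without GFP control replicate 3 the log2 fold change was -0.49 (edgeR adjusted p = 0.450, range 0.441 to 0.734 with each library left out).

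Oit3, a secreted protein of sinusoidal endothelium, measured 16.1, 17.0, 15.0 and 18.1 CPM in POLR2G replicates 1, 3 and 4 and the unnumbered library, and 14.9, 22.2, 18.6 and 21.7 CPM in GFP control replicates 1 to 4. GFP control replicate 1 was below every POLR2G library and the other 3 were above, so the groups overlapped (log2 fold change -0.22, SE 0.135, edgeR adjusted p = 0.740). Pecam1, an adhesion molecule of all endothelia, measured 11.5, 11.5, 15.7 and 13.8 CPM in the POLR2G libraries and 13.4, 11.3, 11.9 and 8.78 CPM in the GFP control libraries (a log2 difference of 0.21, SE 0.161, edgeR adjusted p = 0.792).

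Kdr, the main receptor for the growth factor VEGF-A, measured 34.6, 41.9, 32.9 and 42.2 CPM in POLR2G replicates 1, 3 and 4 and the unnumbered library, and 25.9, 36.6, 38.4 and 39.5 CPM in GFP control replicates 1 to 4. Its log2 fold change was 0.11 with a 95% interval of the fold from 0.864 to 1.35 (edgeR adjusted p = 0.898). Clec4g, a lectin of sinusoidal endothelium, measured 38.4, 40.5, 31.9 and 47.9 CPM in the POLR2G libraries and 29.9, 45.1, 39.1 and 42.9 CPM in the GFP control libraries. The ranges nearly coincided, and its fold of 1.01 had a 95% interval from 0.798 to 1.28 (edgeR adjusted p = 0.994). Ptprb, a phosphatase that restrains the receptor TIE2, measured 53.2, 68.6, 52.8 and 60.3 CPM in POLR2G and 40.6, 62.5, 54.9 and 72.2 CPM in GFP control libraries (a log2 difference of 0.028, SE 0.165, edgeR adjusted p = 0.987). Cdh5, the cadherin of endothelial junctions, had 19.3 ± 4.64 CPM in POLR2G and 17.3 ± 2.34 CPM in GFP control libraries (SD, n = 4 each, edgeR adjusted p = 0.869). Stab1, a scavenger receptor, had 0 to 4 counts in POLR2G libraries and 0 in every GFP control library, and Fcgr2b, an inhibitory Fc receptor, had 3 to 4 and 0 to 7 counts, so neither was tested.

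**Figure D3:**
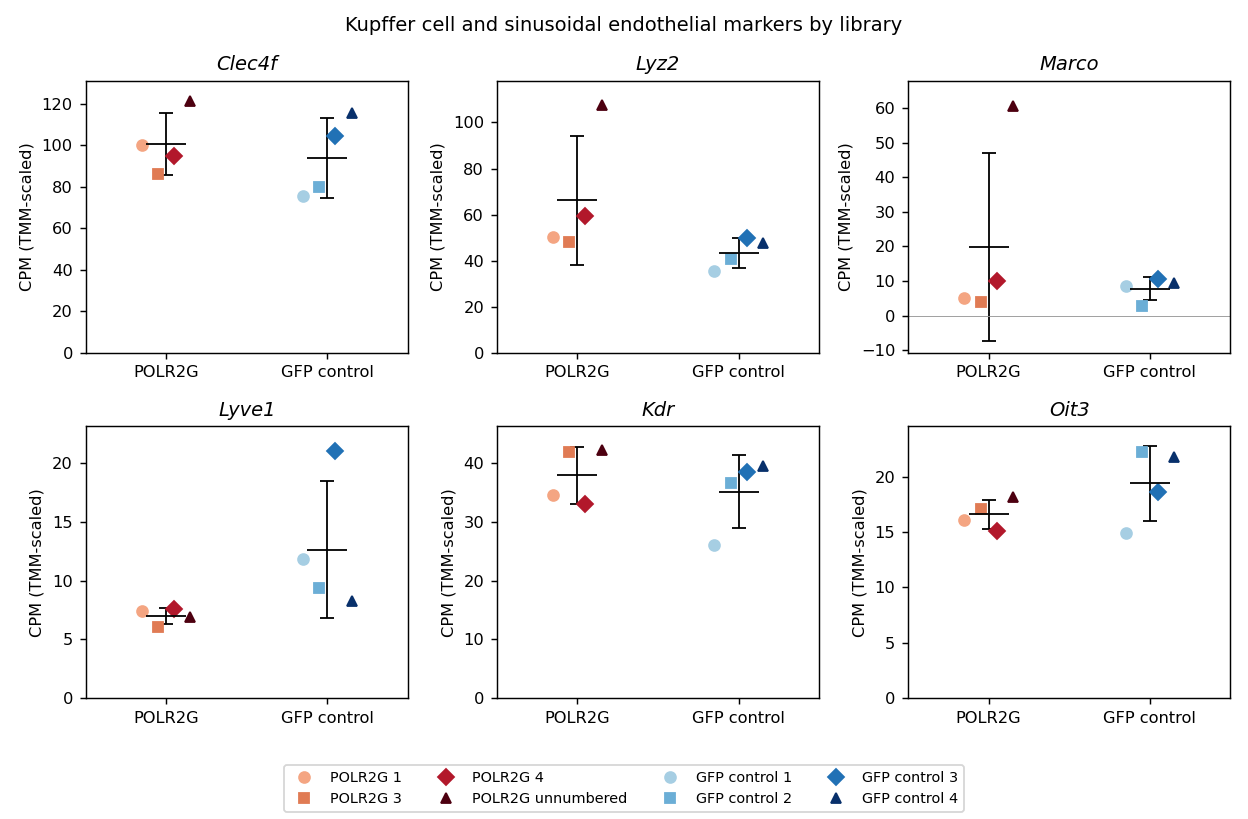
CPM (y axes) of Kupffer cell markers Clec4f, Lyz2 and Marco and endothelial markers Lyve1, Kdr and Oit3 in POLR2G (left, red) and GFP control libraries (right, blue), with each library as a symbol and bars for mean ± SD (n = 4). Marco is set apart by the unnumbered POLR2G library at 60.6 CPM, and Lyve1 is the panel whose groups do not overlap.

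Of 18 further sinusoidal endothelial genes 17 were tested, with 7 above and 10 below 0, a median log2 fold change of -0.021 and 0 past the threshold. Flt4, the receptor for VEGF-C, had the smallest p, at 15.6 ± 0.293 CPM in POLR2G and 19.0 ± 2.52 CPM in GFP control libraries (edgeR adjusted p = 0.514). Genes of larger vessels, with 8 of 11 tested, had a median of -0.053 and 0 past the threshold.

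Stellate cell markers had a median log2 fold change of 0.19 over the 8 tested, with 6 above 0 and 2 below. Their summed level was 173, 135, 120 and 155 CPM in POLR2G replicates 1, 3 and 4 and the unnumbered library, and 92.5, 109, 177 and 142 CPM in GFP control replicates 1 to 4, so the lowest and the highest library were both GFP controls. Without POLR2G replicate 1 the median was -0.0017, with 4 genes above and 4 below 0. GFP control replicate 3 was the highest of its group for 6 of the 8, and replicate 1 the lowest for 4.

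Lrat, the enzyme that esterifies retinol for storage, measured 18.8, 13.6, 11.6 and 20.2 CPM in POLR2G replicates 1, 3 and 4 and the unnumbered library, and 10.5, 10.04, 22.4 and 20.2 CPM in GFP control replicates 1 to 4. Its log2 fold change was 0.026 with a 95% interval of the fold from 0.644 to 1.61 (edgeR adjusted p = 0.994). Reln, a secreted matrix protein that marks stellate cells, measured 29.9, 29.2, 20.4 and 23.5 CPM in POLR2G and 17.6, 19.7, 33.3 and 24.1 CPM in GFP control libraries (a log2 difference of 0.12, SE 0.204, edgeR adjusted p = 0.929). Ecm1, an extracellular matrix protein, measured 70.9, 62.4, 51.2 and 72.9 CPM in POLR2G and 31.04, 50.3, 64.0 and 65.1 CPM in GFP control libraries. GFP control replicate 1 was the lowest of the 8, and the groups overlapped (log2 fold change 0.29, SE 0.217, edgeR adjusted p = 0.785). Des, the intermediate filament desmin, measured 2.9, 3.04, 3.08 and 3.71 CPM in POLR2G and 1.75, 2.67, 3.61 and 2.38 CPM in GFP control libraries (a log2 difference of 0.29, SE 0.260, edgeR adjusted p = 0.828). Hgf, a growth factor for hepatocytes, had 5.47 ± 1.12 CPM in POLR2G and 6.001 ± 1.43 CPM in GFP control libraries, and Dcn, the proteoglycan decorin, 12.5 ± 4.18 and 14.7 ± 4.27 CPM (SD, n = 4 each; edgeR adjusted p = 0.930 for Hgf and 0.888 for Dcn).

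Fibrillar collagen genes spread more widely within each group than their group means lay apart. Col1a2, a chain of type I collagen, measured 18.9, 7.79, 14.2 and 10.1 CPM in POLR2G replicates 1, 3 and 4 and the unnumbered library, and 6.39, 7.31, 17.3 and 9.27 CPM in GFP control replicates 1 to 4. Col1a1, the other chain, measured 8.98, 1.82, 6.55 and 3.65 CPM in POLR2G and 3.17, 2.78, 8.83 and 2.76 CPM in GFP control libraries. For both genes POLR2G replicate 1 and GFP control replicate 3 were the highest of their groups. The log2 fold changes were 0.34 for Col1a2 (SE 0.358) and 0.27 for Col1a1 (SE 0.535), with edgeR adjusted p of 0.864 and 0.941. Without GFP control replicate 3 they were 0.73 and 0.86, and without POLR2G replicate 1 they were 0.087 and -0.12. Col3a1, the type III collagen gene, had 31, 6, 11 and 0 counts in POLR2G and 0, 0, 17 and 9 counts in GFP control libraries and was not tested.

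Upk3b and Msln, mesothelial genes that mark the cells covering the liver's surface, stood high in the same GFP control library. Upk3b measured 0.820, 1.23, 1.37 and 0.299 CPM in POLR2G replicates 1, 3 and 4 and the unnumbered library, and 0.283, 0.754, 4.58 and 0.325 CPM in GFP control replicates 1 to 4. Msln measured 1.01, 0.644, 0.968 and 0 CPM in POLR2G and 0.396, 0.174, 2.77 and 0.271 CPM in GFP control libraries. Over the whole list of 9 mesothelial and portal fibroblast genes, of which 5 were tested, the sums were 3.77 to 8.69 CPM in POLR2G libraries, highest in replicate 1, and 3.36 to 11.4 CPM in GFP control libraries, highest in replicate 3. Within that list Upk1b and Mfap4 were also highest in replicate 3 among GFP control libraries, while Wt1, Gli1, Thy1 and Fbln2 were highest in others. The part of surface or portal tissue in the collagen values was not tested.

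**Figure D4:**
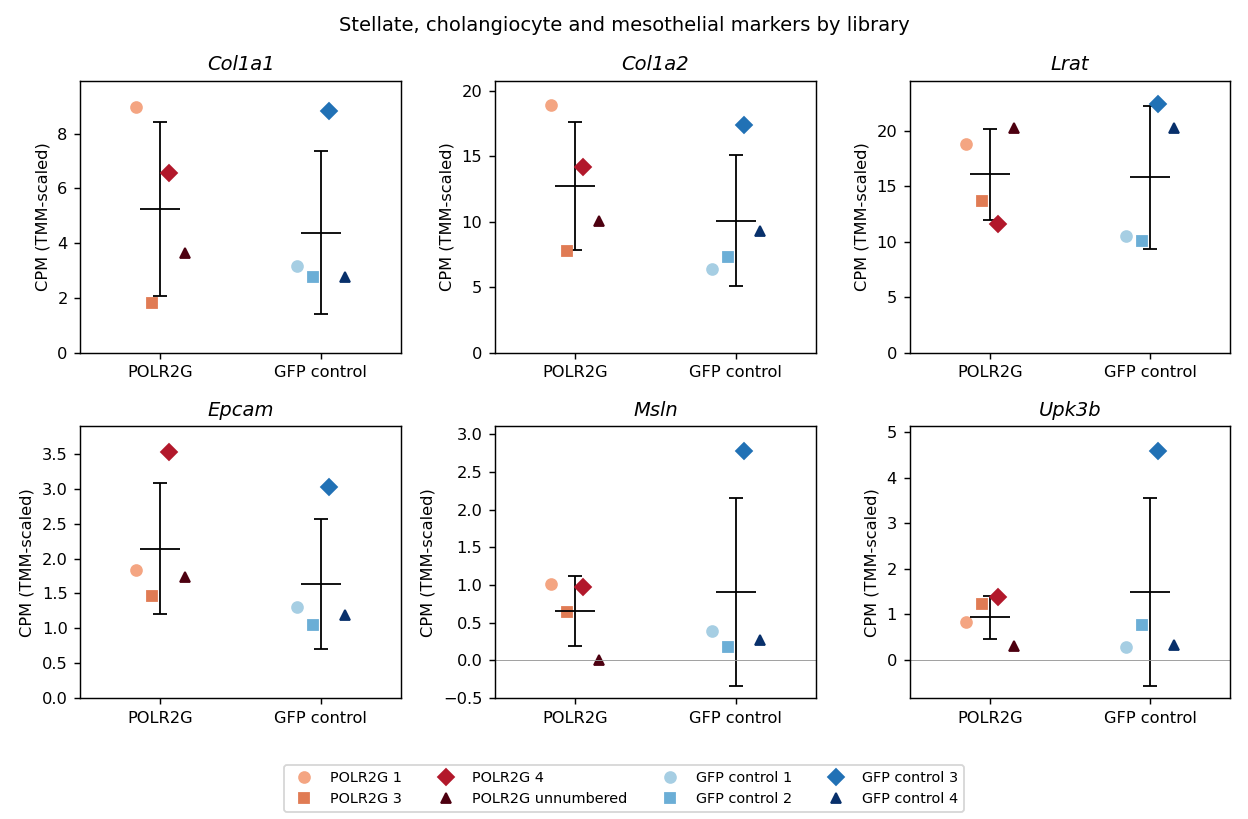
CPM (y axes) of stellate markers Col1a1, Col1a2 and Lrat, cholangiocyte marker Epcam and mesothelial genes Msln and Upk3b in POLR2G (left, red) and GFP control libraries (right, blue), with each library as a symbol and bars for mean ± SD (n = 4). GFP control replicate 3 is the highest GFP control library in every panel, while the highest POLR2G library differs between panels.

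Of 21 further stellate and fibroblast genes 14 were tested, with 6 above and 8 below 0, a median of -0.072 and 0 past the threshold. Ngfr, the low-affinity neurotrophin receptor of stellate cells, had the smallest p (log2 fold change 0.74, SE 0.367, edgeR adjusted p = 0.650). Their sum was 519 to 597 CPM in POLR2G and 443 to 786 CPM in GFP control libraries, and GFP control replicate 3 was again the highest.

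Cholangiocyte markers had the fewest counts, with 3 of 5 genes tested and a median log2 fold change of 0.39. Epcam, an epithelial adhesion molecule of bile ducts, measured 1.83, 1.46, 3.53 and 1.74 CPM in POLR2G replicates 1, 3 and 4 and the unnumbered library, and 1.30, 1.04, 3.03 and 1.19 CPM in GFP control replicates 1 to 4. Each group had 1 high library, and the groups overlapped (log2 fold change 0.39, SE 0.437, edgeR adjusted p = 0.876). Epcam's value, which is also the median of the 3 genes, was 0.037 without POLR2G replicate 4 and 0.86 without GFP control replicate 3. Spp1, the secreted protein osteopontin, which macrophages also make, measured 2.70, 1.87, 1.60 and 0.898 CPM in POLR2G and 1.70, 0.290, 1.61 and 0.759 CPM in GFP control libraries (a log2 difference of 0.70, SE 0.547, edgeR adjusted p = 0.799). Sox9, a transcription factor of bile duct cells, measured 4.49, 4.33, 3.93 and 3.23 CPM in POLR2G and 7.69, 3.42, 3.93 and 2.82 CPM in GFP control libraries. Its log2 fold change was -0.16 (SE 0.317, edgeR adjusted p = 0.940) and turned to 0.24 without GFP control replicate 1. The keratin genes of bile ducts were not tested. Krt7 had 5 to 17 counts in POLR2G and 6 to 27 in GFP control libraries, and Krt19 6 to 17 and 8 to 18, with GFP control replicate 3 highest for both.

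Of 14 further cholangiocyte genes 5 were tested, with 1 above and 4 below 0, a median of -0.088 and 0 past the threshold. Hepatocyte genes, all 12 of which were tested, had 4 above and 8 below 0, a median of -0.053 and 0 past the threshold. Their sums were 127487 to 142762 CPM in POLR2G and 132463 to 157471 CPM in GFP control libraries.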

How the data were processed

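Poly-A RNA of snap-frozen liver was made into sequencing libraries with strand information, per the labels' protocols. The authors deposited 1 table of estimated counts per gene as whole numbers, not normalized. The submitters' processing notes name Salmon 1.2.1 and the builds GRCm38 and mm10. The sources used here do not give the annotation release or how transcripts were summed. Symbols were found for 20817 of 20894 identifiers in GENCODE M21, and columns were assigned by library name. The unnumbered POLR2G library was assigned by the group in its column name.

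The counts were fitted with edgeR 4.0.16 in R 4.3.3 (TMM, filterByExpr with a minimum count of 10 and total of 15, group as the only term, quasi-likelihood F test, two-sided, Benjamini-Hochberg over 10390 genes, threshold 0.05). SE is the log2 fold change over the square root of F. Exact permutation tests used log2 CPM with a prior count of 2 over all 70 arrangements. Alternatives were other scalings and filters, DESeq2 1.42.0, limma-voom (limma 3.58.1), library sizes without Polr2g or the 20 most abundant genes, the replicate number as a block, genes with 1 coding transcript, and leaving out each library. Added after seeing the data were the same 6 libraries without the block and leaving out GFP control replicate 3 with the unnumbered POLR2G library. The fits were also run on simulated data, but how often they recover folds as small as those of most markers is not given here. Every pair of libraries in a group differed by more than sampling noise (13.7 to 138 chi-square units per degree of freedom).

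Values for every library are given for the 3 tested markers with the smallest p and the 3 with the highest mean in each cell type. Col1a1, Col3a1, the C1q genes, Cd9, Csf3r, Ly6g, Ngp, Lyz1, and Msln, Upk3b and the other named genes of their list were picked out after their values were seen. The markers and lists were chosen with earlier results of these data known.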

Additional observations from a re-analysis of the deposited data

Results flagged for a closer look

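In 70 sets of 4 libraries (the CPM of each tested marker and the summed CPM of each cell type, by group), 3 held a library whose gap to its nearest neighbour passed Dixon's 95% critical value as a share of the range. Chance flags about 1 set in 20. Marco stood at 60.6 CPM in the unnumbered POLR2G library, against 3.92 to 9.97 CPM in the other 3 POLR2G libraries. Col1a1 stood at 8.83 CPM in GFP control replicate 3, against 2.76 to 3.17 CPM in the other 3 GFP control libraries. Epcam stood at 3.03 CPM in that same library, against 1.04 to 1.30 CPM in the others.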

How the results depend on the processing

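Under all 21 alternatives 0 markers were called. DESeq2 gave no adjusted p for Adgre1, Des, Spp1 and Epcam, so it could not call them. Of 634 marker values 589 kept their direction while 45, from 16 genes, turned sign without being called on either side. Called genes over the whole table numbered 4, against 1 with library totals only, 140 with DESeq2, 2 without GFP control replicate 3 and the unnumbered POLR2G library, and 1 to 6 with each library left out. Leaving Polr2g or the most abundant genes out of library sizes moved no marker, because TMM rescales such sizes. With library totals only, Clec4g was at -0.064, Ptprb at -0.052 and Lrat at -0.061.

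Libraries with the same replicate number had correlations of 0.064, -0.025 and 0.036, and the other pairs across groups -0.064 to 0.051. So few pairs cannot show whether the numbers pair the libraries. On the 6 libraries with a shared number, the block called 2 genes and the same libraries with no replicate block called 1. The log2 fold changes with the block and without it were -0.055 and -0.074 for Clec4f, -0.0090 and -0.028 for Vsig4, -0.29 and -0.30 for Timd4, -0.065 and -0.084 for Cd5l, -0.68 and -0.58 for Marco, -0.030 and -0.040 for C1qa, -0.021 and -0.022 for C1qb, -0.10 and -0.13 for Ctss, -0.0066 and -0.015 for Clec4g, and -0.24 and -0.27 for Lrat. These 6 lack the unnumbered library.

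Without GFP control replicate 3 and the unnumbered library, Timd4 was at -0.11, Marco at -0.13, Clec4g at -0.091, Ptprb at -0.0077 and Cdh5 at -0.048. With each library left out, the ranges were -0.0023 to 0.22 for Clec4f, -0.21 to 0.27 for Timd4, -0.31 to 1.69 for Marco, -0.021 to 0.29 for Ctss, -0.26 to 0.11 for Cd74, -0.096 to 0.11 for Clec4g, -0.11 to 0.16 for Ptprb, -0.0093 to 0.17 for Kdr, -0.0035 to 0.25 for Cdh5, -0.12 to 0.86 for Col1a1, -0.14 to 0.24 for Lrat and -0.33 to 0.24 for Sox9.

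Over the genes each fit tested, the cholangiocyte median (0.39) was -0.16 with no low-count filter, -0.16 with 1 coding transcript, 0.94 without GFP control replicate 3 and the unnumbered library, and -0.33 to 0.86 with each library left out. Over the same 3 genes it was 0.39 with no low-count filter and 0.037 to 0.86 with each library left out. The endothelial median was -0.23 over genes with 1 coding transcript, where fewer markers remain. The Kupffer median was 0.023 to 0.30 with each library left out. On the 6 libraries it was -0.055 with the replicate block and -0.074 without it, with 3 genes above and 10 below 0 in both, and 14 of all 31 markers were above 0. Few counts limit the cholangiocyte genes, Adgre1 and Des.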
